A study of Mus musculus with 12 samples.

Results

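The genes described here encode nuclear receptors, transcription factors most of which are switched by small fat-soluble ligands, and they were picked by name from a list of 34 members that leaves out the clock repressors and Pparg. All 34 members were found among the 54532 genes of the table. Liver RNA was sequenced from 12 male C57BL/6J mice, 3 in each of 4 groups, and each library came from a separate mouse. One group ate a normal diet (ND), and the control group ate a high-fat diet. The remaining groups ate the high-fat diet with 1% linoleic acid (LA), a plant fatty acid, or with 1% HYA, a hydroxy fatty acid that gut bacteria make from LA. Feeding began at 5 weeks of age and went on for 26 weeks. The libraries held between 17169064 assigned fragments, in ND mouse 2, and 25220880, in HYA mouse 3. Values are FPKM, a fragment count scaled for gene length and for a library size that was not the assigned count, as described below.

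In the liver, receptors of this family sense bile acids, oxysterols, fatty acids, hormones and foreign compounds, and they set the transcription of the genes that make, move or break down these molecules. Many bind DNA as a pair with a retinoid X receptor, at repeats of a short half-site, and recruit coactivators or corepressors. Their own RNA level says how much receptor message is present and nothing about ligand or activity.

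Among the 34 members, Hnf4a was the most abundant in every group, with a mean of 152 ± 4.36 FPKM (SD, n = 3) in ND-fed mice. It encodes HNF4A, which keeps up the hepatocyte's program of secreted proteins and enzymes. Rxra, the main retinoid X receptor gene of liver, came next, and Nr1h4 (the bile acid receptor FXR), Ppara (the fatty acid receptor), Nr1i3 (CAR), Nr1h3 (LXRα), Nr2f6, Nr0b2 (SHP) and Nr1i2 (PXR) followed. At the low end, 5 members did not reach a mean of 1 FPKM and were not tested, namely Nr4a2, Nr2f1, Nr4a3, Hnf4g and Vdr, which left 29. Between those ends, ranges over the 12 mice were 44.1 to 55.9 FPKM for Nr1h4, 32.3 to 45.7 for Nr2f6, 22.5 to 32.7 for Nr1i2 and 12.2 to 13.9 for Nr1h2, which encodes LXRβ. Rora, a sterol-linked orphan receptor gene, spanned 5.88 to 8.51, the retinoic acid receptor gene Rara 5.09 to 6.99, the orphan receptor gene Nr2f2 3.61 to 5.00, and the thyroid hormone receptor gene Thra 2.94 to 4.68. The orphan receptor genes Nr2c1 and Nr2c2 spanned 3.29 to 4.28 and 2.11 to 2.91, the retinoid X receptor gene Rxrg 2.56 to 3.97, and Nr3c2, for the mineralocorticoid receptor, 2.51 to 3.59. Lowest of those tested, besides Nr6a1, were Nr4a1 (0.682 to 5.52), Ppard (0.997 to 2.89), Rarb (1.03 to 2.10) and the oestrogen receptor gene Esr1 (0.739 to 1.58). Of the untested ones, Nr4a2 spanned 0.0776 to 0.680, Nr2f1 0.134 to 0.284, Nr4a3 0 to 0.161, Hnf4g 0 to 0.212 and Vdr 0 to 0.0913. Vdr was at or below the floor of 3 fragments in 10 mice, Hnf4g in 7 and Nr4a3 in 2. Summed over the 34 members, the level was 652 ± 5.78 FPKM in ND-fed mice, 563 ± 26.7 in control mice, 621 ± 27.9 in HYA-treated mice and 550 ± 16.3 in LA-treated mice. The control sum was 86.3% of the ND sum, but it was 102% after rescaling each mouse to the same FPKM total, so its direction depended on scaling. With median-ratio size factors it was 75.7%. These factors were taken relative to assigned counts but applied to FPKM, which rest on another library size. Every size-factor value below carries that mismatch, which puts control values lower against ND values.

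**Figure D1:**
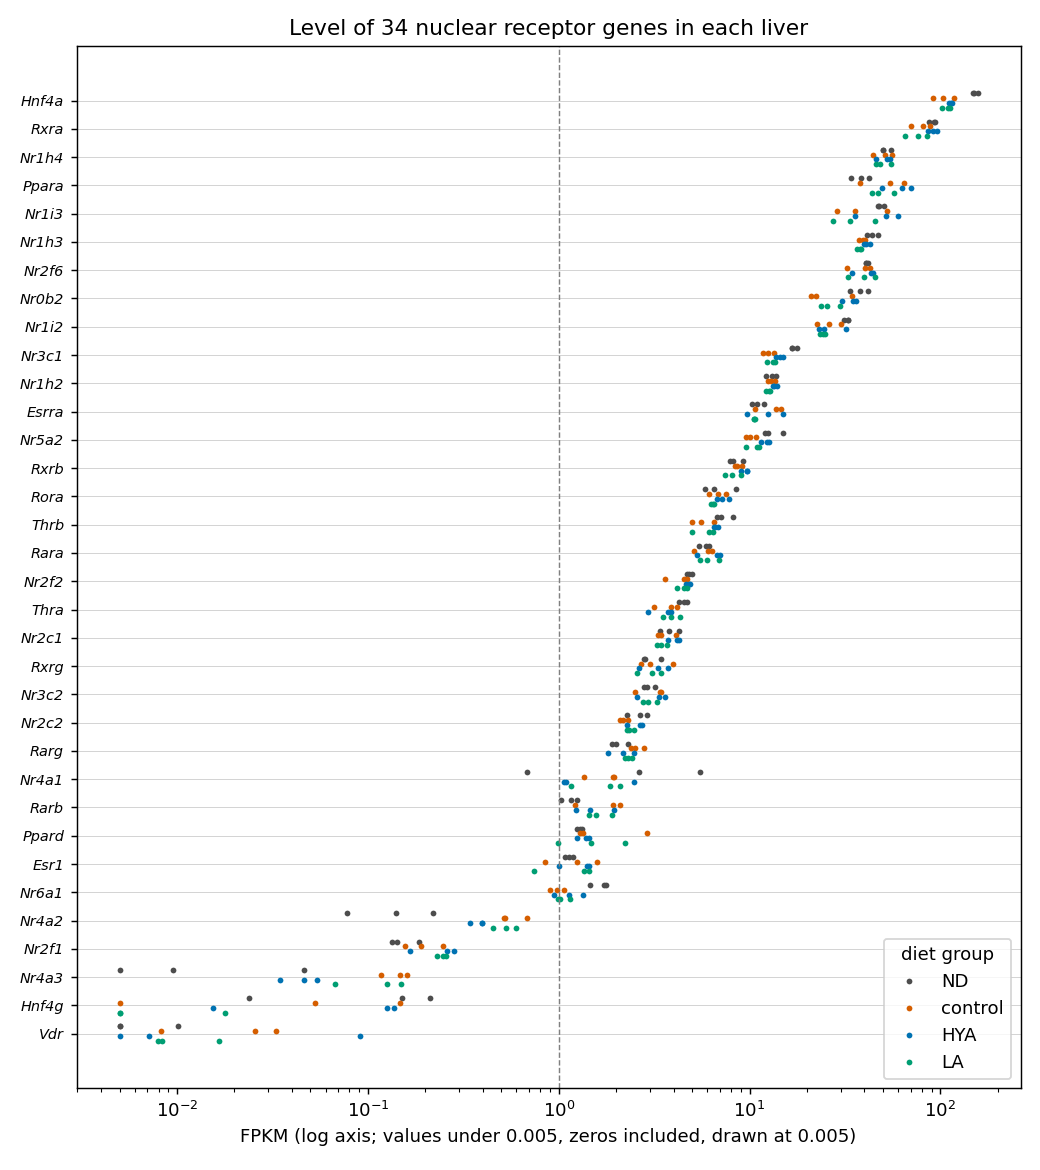
FPKM on a log axis for each of the 34 members, with 1 point per mouse coloured by group (n = 3). Hnf4a lay highest, and 5 members had means under 1 FPKM.

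Control and ND-fed mice were compared to see how the high-fat diet changed these genes. At an adjusted p under 0.05, 0 of 29 tested members were higher in control mice and 7 (24.1%) were lower, beside 1795 genes higher (16.2%) and 2115 lower (19.1%) among the 11083 tested. The count of 0 is from limma on log2 FPKM, in which 11 members had an unadjusted p under 0.05 in either direction, against 4994 genes (45.1%), and voom called 2 members higher, Nr4a2 and Nr4a3, which limma had not tested. Leaving out control mouse 2 (Rarb), control mouse 3 (Ppara) or HYA mouse 3 (Rarg) gave 1 member higher, and leaving out control mouse 1 gave 4 lower. None of the 29 passed a log2 fold change of 1 in size as well, against 430 genes (3.88%). The ranges of the mice were apart for 10 members (34.5%), against 5053 genes (45.6%). Of the other 588 tested genes assigned to a transcription factor family, 46 (7.82%) were higher and 98 (16.7%) lower.

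Scaling mattered for these directions. Over the 11083 genes, the middle log2 fold change was -0.04, but it was 0.17 after rescaling to the same total. It was -0.20 with size factors, a value that includes the mismatch of library sizes. Voom tested 14353 genes, with a middle value of -0.004, and limma on FPKM at the filter of 10 mean fragments gave -0.006 over as many. The tested members had a median of -0.10, which became 0.13 after rescaling to the same total and, with the same mismatch, -0.29 with size factors. Changes of the called members are therefore also given relative to the median of all genes.

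Among the 7 lower members, Hnf4a (ENSMUSG00000017950, GRCm38 chromosome 2, 163506808 to 163572910, plus strand) was the most abundant. Its level was 157, 149 and 149 FPKM in the ND-fed mice and 91.5, 104 and 118 in the control mice. The HYA-treated mice had 115, 113 and 111, and the LA-treated mice had 112, 110 and 102. Every ND-fed mouse lay above every mouse on the high-fat diet. Against ND, the control mice were lower by a log2 fold change of -0.54 (SE 0.0812, adjusted p 0.000531), or 1.45-fold. Relative to the median of all genes the change was -0.50, and it lay between -0.54 and -0.48 under the other scalings. After rescaling to the same total the change itself was -0.31 (adjusted p 0.00814). An antisense gene, Hnf4aos, overlaps Hnf4a over 34913 bases at 3.62 FPKM. Whether the counting kept strands apart was not stated, so some of its reads could be in either value. The 200 bases before one annotated Hnf4a start (chromosome 2, 163546955 to 163547154, inside the gene and touching no exon) read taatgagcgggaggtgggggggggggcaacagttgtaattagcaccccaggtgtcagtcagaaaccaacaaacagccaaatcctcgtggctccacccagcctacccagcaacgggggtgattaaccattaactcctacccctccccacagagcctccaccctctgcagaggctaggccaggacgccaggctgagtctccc. They held 0 copies of the receptor half-site AGGTCA on either strand, as did the window of the other start, whereas 3735 of 32851 such windows in the genome (11.4%) held at least 1.

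Nr3c1 encodes the glucocorticoid receptor, which carries the cortisol-like signal of fasting and stress into liver gene expression. It had 16.8, 17.8 and 16.7 FPKM in ND-fed mice and 12.4, 13.4 and 11.8 in control mice. In HYA-treated mice the values were 15.1, 13.8 and 14.4, and in LA-treated mice they were 12.4, 13.2 and 13.6. The lowest ND-fed mouse was above all 9 mice on the high-fat diet, and the HYA-treated mice lay above all of the control mice. Against ND the control mice differed by -0.42 (SE 0.0606, adjusted p 0.000428), a 1.36-fold lower level. The change relative to the median was -0.38, and from -0.44 to -0.37 under the other scalings. The change itself was -0.21 after rescaling to the same total (adjusted p 0.0313).

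Nr6a1 (ENSMUSG00000063972, chromosome 2, 38723370 to 38927688, minus strand) encodes the germ cell nuclear factor, an orphan receptor that acts mainly in early development and germ cells. It was scarce in these livers, at 1.45, 1.77 and 1.72 FPKM in ND-fed mice and 0.984, 1.06 and 0.905 in control mice. The HYA-treated mice had 1.13, 1.34 and 0.946, and the LA-treated mice 1.01, 1.15 and 0.995. Again the ND-fed mice stood apart from the other 9. The control level was 1.67-fold lower than ND, with a log2 fold change of -0.41 on values with 1 added (SE 0.0842, adjusted p 0.00335). That change was -0.37 relative to the median, and between -0.55 and -0.33 under the other scalings of values with 1 added. It was -0.73 with voom, which does not add 1 to FPKM. With 0.1 added in place of 1, and no change of scaling, the change itself was -0.69. At an alternative start inside the gene, the window at 38784516 to 38784715 read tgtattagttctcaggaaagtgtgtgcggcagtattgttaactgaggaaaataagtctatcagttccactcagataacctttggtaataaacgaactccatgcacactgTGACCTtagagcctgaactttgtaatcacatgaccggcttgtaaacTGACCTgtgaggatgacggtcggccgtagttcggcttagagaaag and held 2 copies of the half-site, in capitals, as the reverse complement TGACCT, whereas the window of the other annotated start held 0. A match of this length describes the sequence only and does not show binding.

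Nr5a2 and Nr0b2 work together in bile acid feedback. Nr5a2 (ENSMUSG00000026398, chromosome 1, 136842571 to 136960448, minus strand) encodes LRH-1, an activator of bile acid synthesis genes, and Nr0b2 (ENSMUSG00000037583, chromosome 4, 133553376 to 133556536, plus strand) encodes SHP, which has no DNA-binding domain and represses LRH-1. Nr5a2 had 12.5, 12.1 and 15.0 FPKM in ND-fed mice, and 9.64, 10.8 and 10.01 in control mice. HYA-treated mice had 12.6, 12.3 and 11.5, and LA-treated mice had 9.62, 11.2 and 10.996. The control and LA ranges lay below the ND range, and the HYA range overlapped it. The control mice were lower than ND-fed mice by -0.35 (SE 0.0853, adjusted p 0.00978). This call was lost after rescaling to the same total (-0.13, adjusted p 0.234), although the change relative to the median was -0.30 either way. The 200 bases before the outermost Nr5a2 start (chromosome 1, 136960449 to 136960648), which overlap no annotated gene, read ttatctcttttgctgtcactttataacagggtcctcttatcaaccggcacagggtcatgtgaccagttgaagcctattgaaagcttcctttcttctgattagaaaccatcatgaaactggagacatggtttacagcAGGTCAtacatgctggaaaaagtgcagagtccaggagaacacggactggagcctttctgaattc, with 1 copy of the half-site in capitals. The window of its other annotated start (136953631 to 136953830), inside the gene, held 0.

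Nr0b2 varied more. Its values were 41.6, 37.8 and 33.7 FPKM in ND-fed mice and 21.1, 22.2 and 34.5 in control mice. HYA-treated mice had 35.0, 36.0 and 30.4, and LA-treated mice had 25.5, 29.7 and 23.7. Control mouse 3 lay above the lowest ND-fed mouse, so these ranges overlapped, whereas all LA-treated mice lay below the ND range. The log2 fold change between control and ND was -0.55 (SE 0.164, adjusted p 0.0236), and it was -0.51 relative to the median. It was not called after rescaling to the same total (-0.33, adjusted p 0.145), without a filter (0.0527) or with the compared groups alone (0.0692). Leaving out ND mouse 1 (adjusted p 0.0770), ND mouse 2 (0.0608), control mouse 1 (0.0954) or control mouse 2 (0.0776) ended the call. The 200 bases before its start (chromosome 4, 133553176 to 133553375), which overlap no annotated gene, read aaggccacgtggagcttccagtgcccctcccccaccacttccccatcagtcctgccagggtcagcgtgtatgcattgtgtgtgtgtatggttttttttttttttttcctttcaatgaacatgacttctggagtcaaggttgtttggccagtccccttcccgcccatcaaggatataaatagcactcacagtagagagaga and held 0 half-sites. Over the 31 members with an annotated window, 5 of 45 windows (11.1%) held the half-site, those of Nr5a2, Nr6a1, Rxra, Rxrg and Thrb, beside 11.4% of all windows.

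Thrb and Nr1h3 were nearer to the threshold. Thrb (ENSMUSG00000021779, chromosome 14, 17660261 to 18038090, plus strand) encodes the main thyroid hormone receptor of hepatocytes. Its level was 6.74, 7.08 and 8.19 FPKM in ND-fed mice and 5.01, 6.53 and 5.56 in control mice. In HYA-treated mice it was 6.61, 6.50 and 6.80, and in LA-treated mice 6.47, 6.14 and 4.98. The control mice lay below the ND range, and the HYA range crossed it. The log2 fold change of control against ND was -0.32 (SE 0.103, adjusted p 0.0343), or -0.27 relative to the median and from -0.36 to -0.29 under the other scalings. After rescaling to the same total the change itself was -0.12 and was not called (adjusted p 0.347), and the call was also lost without a filter (0.0686), with the compared groups alone (0.0687) and with replicate number as a block (0.0540). It was lost as well without ND mouse 2 (adjusted p 0.0622), ND mouse 3 (0.118), control mouse 1 (0.131) or control mouse 3 (0.0778). Nr1h3 (ENSMUSG00000002108, chromosome 2, 91184061 to 91202834, minus strand) encodes LXRα, an oxysterol receptor, and was named after its values were seen because it was the remaining called member. It had 47.3, 44.0 and 41.1 FPKM in ND-fed mice and 37.5, 40.3 and 39.4 in control mice, ranges that did not overlap. HYA-treated mice had 42.7, 39.8 and 41.0, and LA-treated mice had 36.7, 38.2 and 37.8. Its log2 fold change was -0.17 (SE 0.0583, adjusted p 0.0433). After rescaling to the same total it was 0.063, but relative to the median of all genes it was -0.13, and from -0.16 to -0.11 under the other scalings, rescaling included. It was no longer called in any of the fits without ND mouse 1 or 2, control mouse 1 or 3, HYA mouse 2 or 3, or LA mouse 1, 2 or 3 (adjusted p 0.0543 to 0.147).

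**Figure D2:**
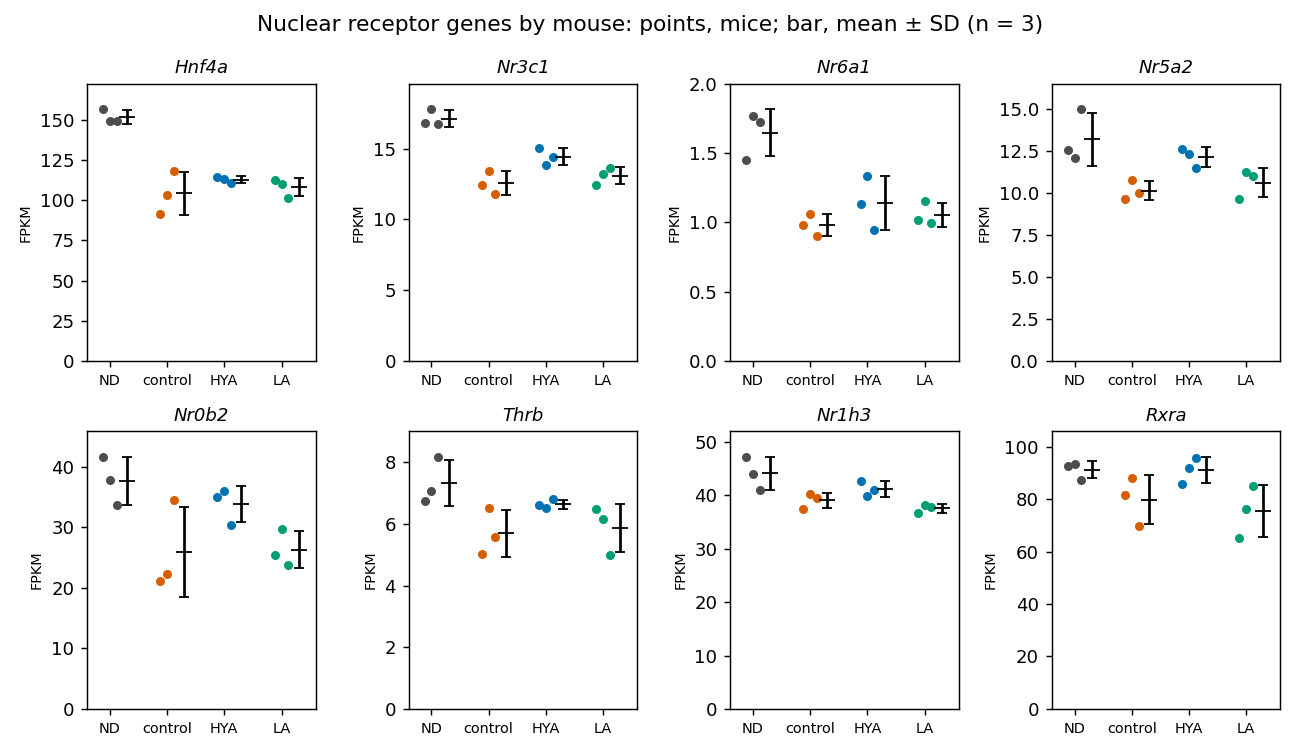
FPKM of 8 members in each mouse, by group, with the mean and SD of 3 mice. The ND-fed mice lay above all other mice for Hnf4a, Nr3c1 and Nr6a1, whose control against ND change stayed negative under every scaling tried, whereas that of Nr1h3 was 0.063 after rescaling to the same total, or -0.11 relative to the median of all genes.

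Several receptors of xenobiotic and fatty acid sensing were not called. Ppara had 33.9, 38.5 and 42.3 FPKM in ND-fed mice and 54.7, 64.3 and 38.0 in control mice, with HYA-treated mice at 49.2, 63.1 and 70.6 and LA-treated mice at 43.8, 47.0 and 57.5. Control mouse 3 lay inside the ND range while the others lay above it, and the log2 fold change was 0.42 (adjusted p 0.112). Nr1i3 had 50.5, 47.7 and 47.3 FPKM in ND-fed mice and 35.8, 52.8 and 28.7 in control mice, with HYA-treated mice at 35.7, 51.8 and 60.0 and LA-treated mice at 27.3, 33.6 and 45.7. Its control and ND ranges overlapped and the change of -0.35 was not called (adjusted p 0.296), while the LA-treated mice all lay below the ND range (-0.47, adjusted p 0.171). Nr1i3 shares 4691 bases with Tomm40l on the other strand, Thra 1075 with the clock gene Nr1d1, Rarb 4624 with Top2b (3.61 FPKM), Nr2f6 5239 with Ocel1 and Nr2c2 4770 with Mrps25, so their values are uncertain to the extent that reads were counted without strand. For Nr1i2 the change was -0.30 (adjusted p 0.0766), and for the retinoic acid receptor genes Rarg and Rarb it was 0.22 (0.0695) and 0.34 (0.0734). After rescaling to the same total, 6 members were called higher, namely Ppara, Nr1h2, Esrra, Rxrb, Rarg and Rarb, and with size factors 13 were called lower. All genes shifted in the same way, with 3792 called higher and 732 lower after rescaling and 1118 and 4709 with size factors. The size-factor counts include the mismatch of library sizes, and voom with TMM called 2561 genes higher and 2209 lower. Relative to the median of all genes, Ppara was at 0.46 and stayed between 0.43 and 0.49 under the other scalings. Rarb was at 0.39, between 0.43 and 0.47 under the other scalings with 1 added, and at 0.57 with voom, which does not add 1 to FPKM. A sum over 13 clock genes, of which Nr1d1 had the highest mean over the mice and none was at 0, was 110, 120 and 143 FPKM in ND-fed mice and 160, 178 and 72.4 in control mice. In HYA-treated mice that sum was 108, 167 and 198, and in LA-treated mice 80.7, 101 and 148. Whether the spread of Ppara and Nr1i3 within groups follows time of day was not tested.

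**Figure D3:**
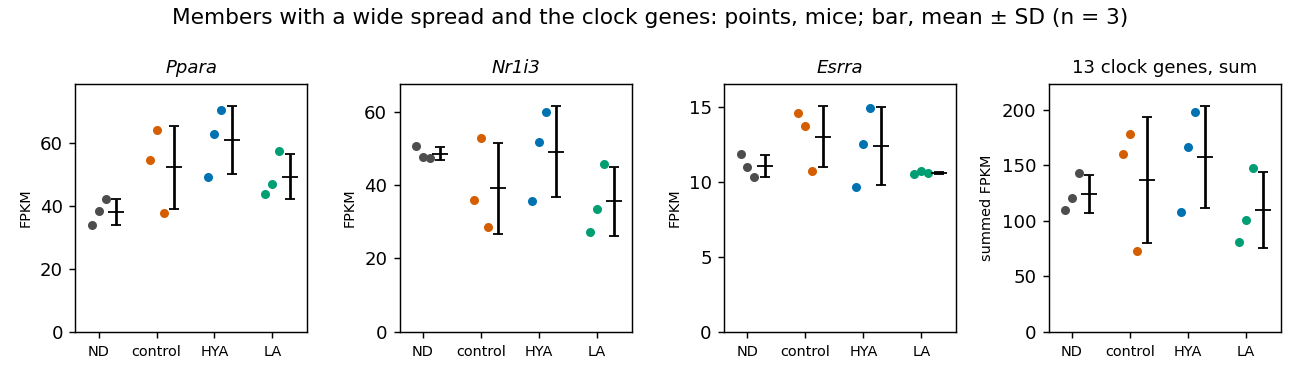
FPKM of Ppara, Nr1i3 and Esrra and the summed FPKM of 13 clock genes in each of the 12 mice, by group. Control mouse 3 had the lowest value of its group in all 4 panels, and HYA mouse 3 had the highest of its group.

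HYA-treated and control mice were compared to see whether HYA changed these genes on the high-fat diet. By limma, 0 of 29 members were called in either direction, beside 310 of the 11083 genes (2.80%), and 3 members had an unadjusted p under 0.05, against 2055 genes (18.5%). Voom, which tested 32 members, also called 0, with 6 at an unadjusted p under 0.05, against 5 by limma at the filter of 10 mean fragments. The 310 genes were 174 higher and 136 lower, counts that went from 0 to 377 and from 0 to 276 as each mouse was left out, with both at 0 without HYA mouse 2. One member was called once control mouse 3 was left out, Nr0b2 (adjusted p 0.0469), and one with size factors, Nr3c1 (adjusted p 0.0398). The size-factor setting carries the mismatch of library sizes, and its median of all genes was 0.10, beside -0.003 with voom. The ranges were apart for 2 members (6.90%), against 2390 genes (21.6%). The lowest p belonged to Nr3c1, at a log2 fold change of 0.19 (95% interval 0.05 to 0.32, adjusted p 0.122). Nr5a2 followed at 0.24 (adjusted p 0.163) and Nr0b2 at 0.40 (adjusted p 0.221). Of the 29 members, 23 were positive and 6 negative, beside 44.4% of all genes negative, but after rescaling to the same total 18 were negative, and the median of all genes was then -0.09.

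LA-treated and control mice gave 0 called members by limma, 0 at an unadjusted p under 0.05, and 0 called by voom, beside 0 of all 11083 genes called (0%) and 294 at an unadjusted p under 0.05 (2.65%). The members with the lowest p were Esrra, an orphan receptor gene of mitochondrial programs, at -0.26 (95% interval -0.56 to 0.04), Rarg at -0.11 and Rxrb at -0.08, each with an adjusted p of 0.999. Esrra had 14.6, 13.7 and 10.7 FPKM in control mice and 10.5, 10.7 and 10.6 in LA-treated mice, with 11.9, 10.96 and 10.3 in ND-fed and 9.69, 12.5 and 14.9 in HYA-treated mice. Control mouse 3 lay just above the LA range and the other control mice well above it. Rarg had 2.79, 2.53 and 2.39 FPKM in control, 2.42, 2.30 and 2.22 in LA-treated, 1.99, 2.30 and 1.91 in ND-fed and 2.49, 2.17 and 1.82 in HYA-treated mice, so the control and LA ranges overlapped. Rxrb had 8.59, 8.39 and 9.14 FPKM in control, 8.13, 9.04 and 7.45 in LA-treated, 8.17, 7.93 and 9.28 in ND-fed and 9.71, 9.68 and 9.05 in HYA-treated mice, and these ranges overlapped too. These p values do not show that LA left the members as they were.

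HYA and LA were compared at the same dose and duration, and HYA carries a hydroxyl group where LA has one of its double bonds. By limma 0 of 29 members were called, beside 54 of 11083 genes (0.487%, and 0 without HYA mouse 2, LA mouse 1 or LA mouse 2), and by voom 0 were called. At an unadjusted p under 0.05 there were 2 members by limma and 4 by voom, which tested 32 members, against 1908 genes by limma (17.2%). The ranges were apart for 10 members (34.5%), against 2793 genes (25.2%). Rxra (ENSMUSG00000015846, chromosome 2, 27676440 to 27762957, plus strand) had 86.1, 92.0 and 96.0 FPKM in HYA-treated mice and 65.2, 76.2 and 85.0 in LA-treated mice, ranges that were apart by a small margin, with 92.9, 93.4 and 87.6 in ND-fed and 81.6, 88.2 and 70.02 in control mice. Its log2 fold change was 0.28 (95% interval 0.05 to 0.50, adjusted p 0.193). For Rxrb it was 0.19 (95% interval 0.02 to 0.36, adjusted p 0.226), and for Nr1h3 it was 0.13 (adjusted p 0.291). A p that misses the threshold does not show that the fatty acids act alike on these genes. All 7 members that were lower in control than in ND-fed mice had a positive sign in HYA minus LA, a comparison that shares no mouse with it, as had 81.3% of the 2115 lower genes. Of the 29 members 24 were positive (82.8%), and of all genes 54.1%, so 7 of 7 lay near the share of the family. After rescaling to the same total, 5 of the 7 were positive, beside 49.7% of the lower genes, 13 of 29 members and 26.8% of all genes.

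**Figure D4:**
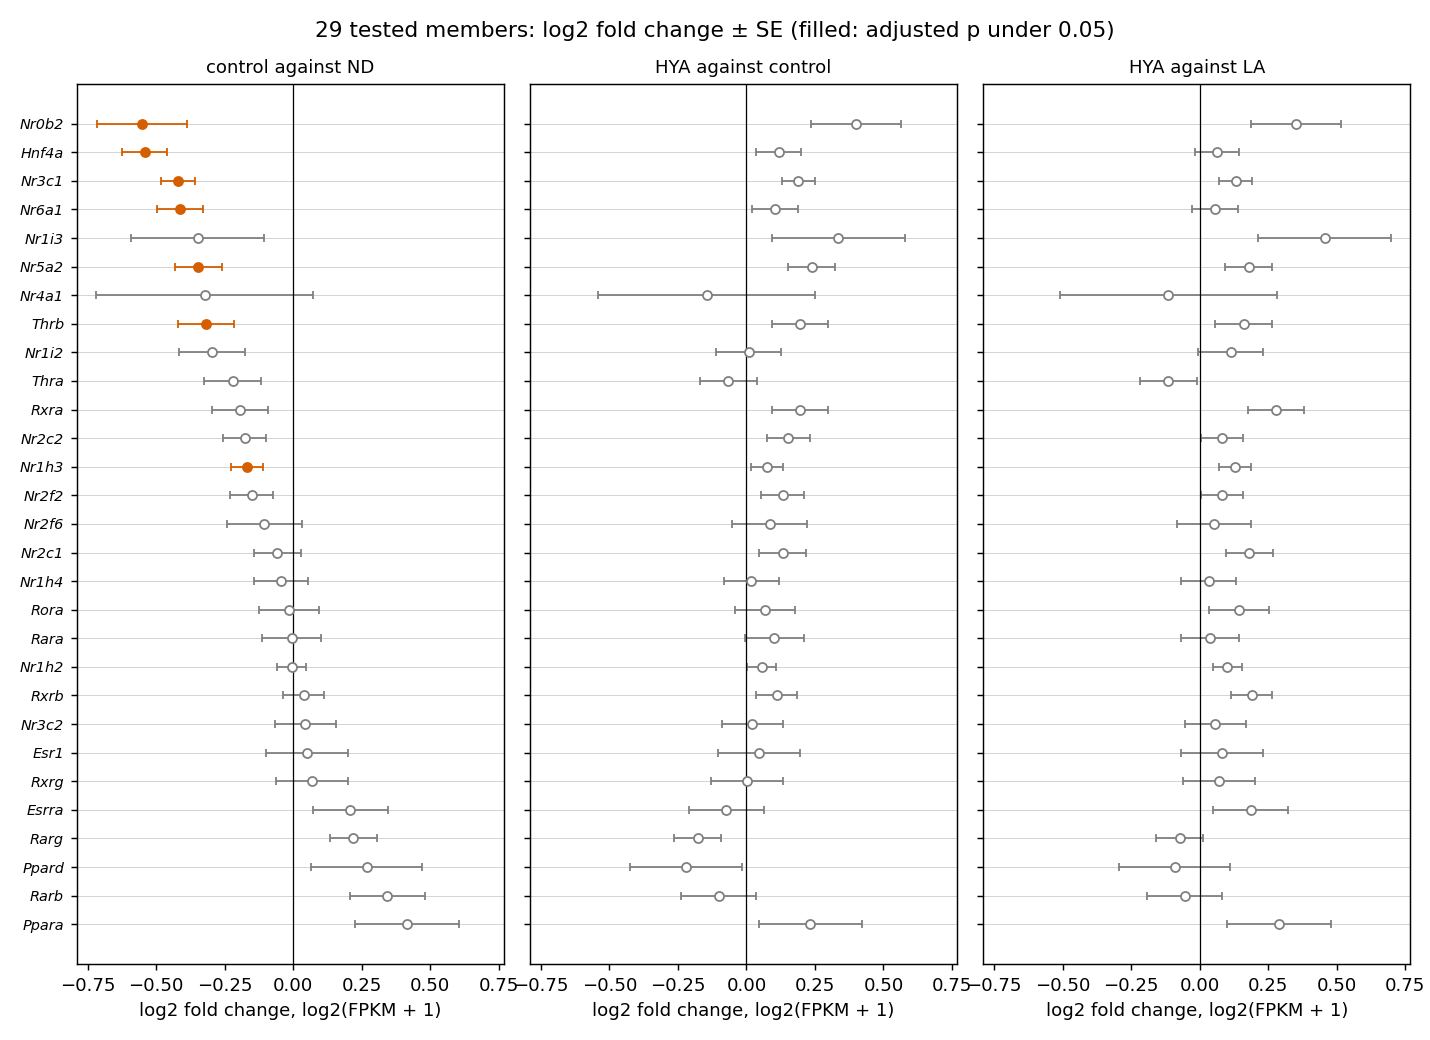
Log2 fold change with its SE for the 29 tested members for the high-fat control diet against ND, for HYA against the control diet and for HYA against LA (n = 3 mice per group). The 7 members called lower in control mice were below 0, though Nr1h3 was at 0.063 after rescaling to the same total (-0.11 relative to the median of all genes), and none was called in the other comparisons.

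Against ND-fed mice, HYA-treated mice had 1 member higher, beside 966 genes (8.72%), and 3 lower, beside 870 (7.85%). The higher one was Ppara, at 0.65 (adjusted p 0.0393), a call that ended without ND mouse 1, 2 or 3, control mouse 1, HYA mouse 2 or 3, or LA mouse 2 (adjusted p 0.0502 to 0.121). The lower ones were Hnf4a at -0.42 (adjusted p 0.00534), Nr3c1 at -0.23 (adjusted p 0.0252) and Nr6a1 at -0.31 (adjusted p 0.0294). The Nr3c1 call ended without ND mouse 2 or HYA mouse 2 or 3 (adjusted p 0.0601 to 0.0929), and the Nr6a1 call without ND mouse 2 or 3 or HYA mouse 1 or 3 (0.0743 to 0.0978). After rescaling to the same total neither was called (0.210 and 0.0725), and Nr6a1 was not called without a filter (0.0692) or with the compared groups alone (0.0863). The Ppara call also ended without a filter (0.0946) and with size factors (0.0613). LA-treated mice had 0 members higher by limma and 2 by voom, beside 1600 genes higher (14.4%). At an unadjusted p under 0.05 there were 9 members in either direction, against 4635 genes (41.8%). LA-treated mice had 7 members lower, beside 1845 (16.6%), and without LA mouse 1 they had 3. Hnf4a was at -0.49 (adjusted p 0.00122), Nr3c1 at -0.36 (adjusted p 0.00126) and Nr6a1 at -0.36 (adjusted p 0.00770). The call of Nr0b2 at -0.51 (adjusted p 0.0378) ended without ND mouse 1 or 2 or LA mouse 1 or 3 (0.0884 to 0.118). Of the other called members, Nr1h3 lost its call without ND mouse 1 or LA mouse 1 (0.0506 and 0.0525), Nr5a2 without ND mouse 3 or LA mouse 1 (0.0887 and 0.101), and Nr1i2 without ND mouse 2 or 3 or any LA-treated mouse (0.0536 to 0.0773). After rescaling to the same total, which put the median of all genes at 0.17, Hnf4a alone of these 7 stayed called. Nr3c1 was then at -0.15 (adjusted p 0.101), Nr6a1 at -0.32 (0.0503) and Nr1h3 at 0.0014 (0.989), and Nr0b2 (0.204), Nr1i2 (0.244) and Nr5a2 (0.504) were not called either. Nr0b2 (0.0821) and Nr1i2 (0.0563) were also lost without a filter, Nr5a2 with the compared groups alone (0.0656) and Nr0b2 with replicate number as a block (0.0657).

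Lists of coregulators and target genes were read beside the receptors, in control against ND, where 16.2% of all genes were higher and 19.1% lower. Of 23 coregulator genes, 0 were higher by limma and by voom and 6 lower (median -0.10), which became 5 higher and 1 lower after rescaling to the same total and 0 higher and 14 lower with size factors. Tbl1x, part of a corepressor complex, was 10.8 ± 0.301 FPKM in ND-fed and 7.68 ± 0.358 in control mice (-0.45, adjusted p 0.000222). The lower coregulators numbered 2 without ND mouse 1, 3 when ND mouse 2 or control mouse 3 was omitted, 1 on omitting control mouse 2, and at most 8, without HYA mouse 3 or LA mouse 1. Of 11 tested FXR and SHP target genes, 3 were higher and 6 lower (median -0.62). The lists were not split into genes that a receptor raises and genes that it lowers, so their medians give no direction of receptor activity. Cyp8b1, which sets the type of bile acid made, was 0.76 higher (adjusted p 0.0102), and Abcb11, the bile salt export pump, differed by -1.02 (adjusted p 0.000196). Fetub, a secreted protease inhibitor gene, was at -1.23 (adjusted p 2.1e-06). Slc51b, a bile acid exporter gene, was at 0.71 (adjusted p 0.0334) and lost its call without ND mouse 1 or 3 or control mouse 1 or 2 (0.0564 to 0.127), without a filter (0.0753), with voom (0.0537) or with the compared groups alone (0.0778). Of 12 tested HNF4A target genes, 1 was higher and 7 lower (median -0.26). Cyp2d9, a cytochrome gene, differed by -1.98 (adjusted p 6.3e-07) and the clotting factor gene F7 by -1.08 (adjusted p 8.3e-05), while the glycolysis gene Pklr was 0.35 higher (adjusted p 0.0176) but not called without ND mouse 3 (0.0561) or control mouse 1 (0.0698), and with size factors it was at 0.16 (0.213). Sirt1, a deacetylase coregulator, was at -0.30 (adjusted p 0.0336) and was not called when any 1 ND-fed or control mouse was left out (0.0538 to 0.0959), nor without a filter (0.0713), after rescaling to the same total (-0.17, 0.299) or with replicate number as a block (0.0504).

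Target genes of LXR, PPARα, CAR and PXR followed in the same comparison. Of 12 LXR target genes, 7 were higher and 1 lower (median 0.33), with the lipid transfer gene Pltp at 1.43 (adjusted p 5.0e-05), the desaturase gene Scd2 at 1.30 (adjusted p 7.6e-05) and the cholesterol exporter gene Abca1 at -0.70 (adjusted p 3.9e-05). The lower count became 3 when control mouse 2, HYA mouse 1 or HYA mouse 3 was left out. Of 15 PPARα target genes, 9 were higher and 0 lower by limma and by voom (median 0.27), though 1 was lower without control mouse 2. The hormone gene Fgf21 was 0.899 ± 0.483 FPKM in ND-fed and 12.0 ± 5.51 in control mice (2.72, adjusted p 4.8e-05), and the pantetheinase gene Vnn1 was at 1.63 (adjusted p 3.6e-08). Of 12 tested CAR and PXR target genes, 5 were higher and 5 lower (median 0.15). The cytochrome gene Cyp2b9 rose from 8.13 ± 2.002 to 84.2 ± 13.6 FPKM (3.23, adjusted p 1.3e-06). Cyp2b13 was at 1.96 (adjusted p 5.2e-05), and at up to 3.58 under the alternatives, with ND values of 0.297 to 0.403 FPKM below the 1 added. Cyp3a11 was at -1.84 (adjusted p 1.3e-07), while Cyp2c29 fell from 574 ± 21.6 to 96.4 ± 20.9 (-2.59, adjusted p 1.4e-06). Of the receptor genes of these lists, Nr1h3 was called lower while most LXR targets were higher. Nr1h2, Ppara, Nr1i3 and Nr1i2 were not called. After rescaling to the same total, however, Nr1h3 was at 0.063 (adjusted p 0.489), and Nr1h2 and Ppara were called higher.

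For hormone receptors, 8 thyroid hormone target genes were tested, of which 3 were higher and 1 lower (median 0.30). Me1, the malic enzyme gene, was at 1.09 (adjusted p 1.5e-05), the deiodinase gene Dio1 at 0.92 (adjusted p 2.0e-05) and the transcription factor gene Klf9 at -0.74 (adjusted p 0.00170), and without control mouse 3 there were 2 lower. Of 12 glucocorticoid target genes, 3 were higher and 1 lower (median 0.07). The metallothionein genes Mt2 and Mt1 were at 2.19 (adjusted p 0.000189) and 1.78 (adjusted p 7.3e-05), and Tdo2, for tryptophan breakdown, was at -0.60 (adjusted p 0.00343). The lower count was 2 without ND mouse 1 or control mouse 2, and at most 3 over all alternatives. Of 7 tested retinoic acid target genes, 2 were higher and 2 lower (median 0.27), and 4 were higher without control mouse 2. The transglutaminase gene Tgm2 was at 0.64 (adjusted p 0.00287). The retinoic acid hydroxylase gene Cyp26a1 was at -2.55 (adjusted p 0.0229) with control mice spread over 5.86 ± 6.87 FPKM, and its call ended without ND mouse 1 or 2 or control mouse 1 or 2 (0.0549 to 0.0887), or without a filter (0.0551). Dhrs3, which reduces retinal, was at -0.68 (adjusted p 0.0222), and its call ended without ND mouse 3 or control mouse 1 or 2 (0.0699 to 0.0898), without a filter (0.0513) or after rescaling to the same total (-0.46, 0.0897).

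The same lists were read in HYA-treated against control mice, where 2.80% of all genes were called. The FXR and SHP list had 3 of 11 higher (0 to 5 over the alternatives) and the HNF4A list 2 of 12. The thyroid hormone list had 1 higher, the LXR and retinoic acid lists had 1 lower each, and the CAR and PXR list had 1 higher and 4 lower of 12. Without control mouse 2 the HNF4A list had 4 higher, the PPARα list 1 higher, and the LXR and retinoic acid lists 2 lower each. Slc10a1, the bile acid importer gene, was 154 ± 29.1 FPKM in control and 266 ± 17.1 in HYA-treated mice (0.80, adjusted p 0.0168), Fetub was at 0.54 (adjusted p 0.0166), Cyp2d9 at 0.77 (adjusted p 0.0141) and Cyp2c29 at 0.93 (adjusted p 0.0187). In the other direction, Scd2 was at -0.93 (adjusted p 0.0168), and the glutathione transferase genes Gstm3 and Gsta1 were at -1.04 (adjusted p 0.0129) and -1.27 (adjusted p 0.0304). Klf9 at 0.65 (adjusted p 0.0357), Serpina1b, a protease inhibitor gene, at 0.36 (adjusted p 0.0427) and Tgm2 at -0.58 (adjusted p 0.0440) were nearest to the threshold. Leaving out HYA mouse 2 ended all 10 of these calls (Slc10a1 and Scd2 0.0829, Fetub 0.0751, Cyp2d9 and Gstm3 0.0671, Cyp2c29 0.0914, Gsta1 0.126, Klf9 0.156, Serpina1b 0.151, Tgm2 0.171). A fit of the HYA-treated and control mice alone also ended all 10 (adjusted p 0.111 to 0.163), and it called 0 of the 11083 genes. Omitting HYA mouse 3 also ended those of Slc10a1 (0.0516), Scd2 (0.0549), Cyp2c29 (0.0563) and Gsta1 (0.0582), and omitting control mouse 1 those of Slc10a1 and Fetub (both 0.0536) and Gsta1 (0.126). Omission of control mouse 3 (0.0709) or HYA mouse 1 (0.0761) ended the Gsta1 call as well. The Klf9 call ended without ND mouse 2, control mouse 1, HYA mouse 1, 2 or 3, or LA mouse 2 (0.0518 to 0.156). The calls of Serpina1b (0.0531 to 0.151) and Tgm2 (0.0515 to 0.176) ended without any of the 11 mice other than control mouse 2. Without a filter on low values Gsta1 (0.0680), Klf9 (0.0754), Tgm2 (0.0879) and Serpina1b (0.167) were not called, and Serpina1b was also lost at 10 mean fragments (0.0538) and after rescaling to the same total (0.0541). In LA-treated against control mice no gene of any list was called, as no gene was called at all.

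**Figure D5:**
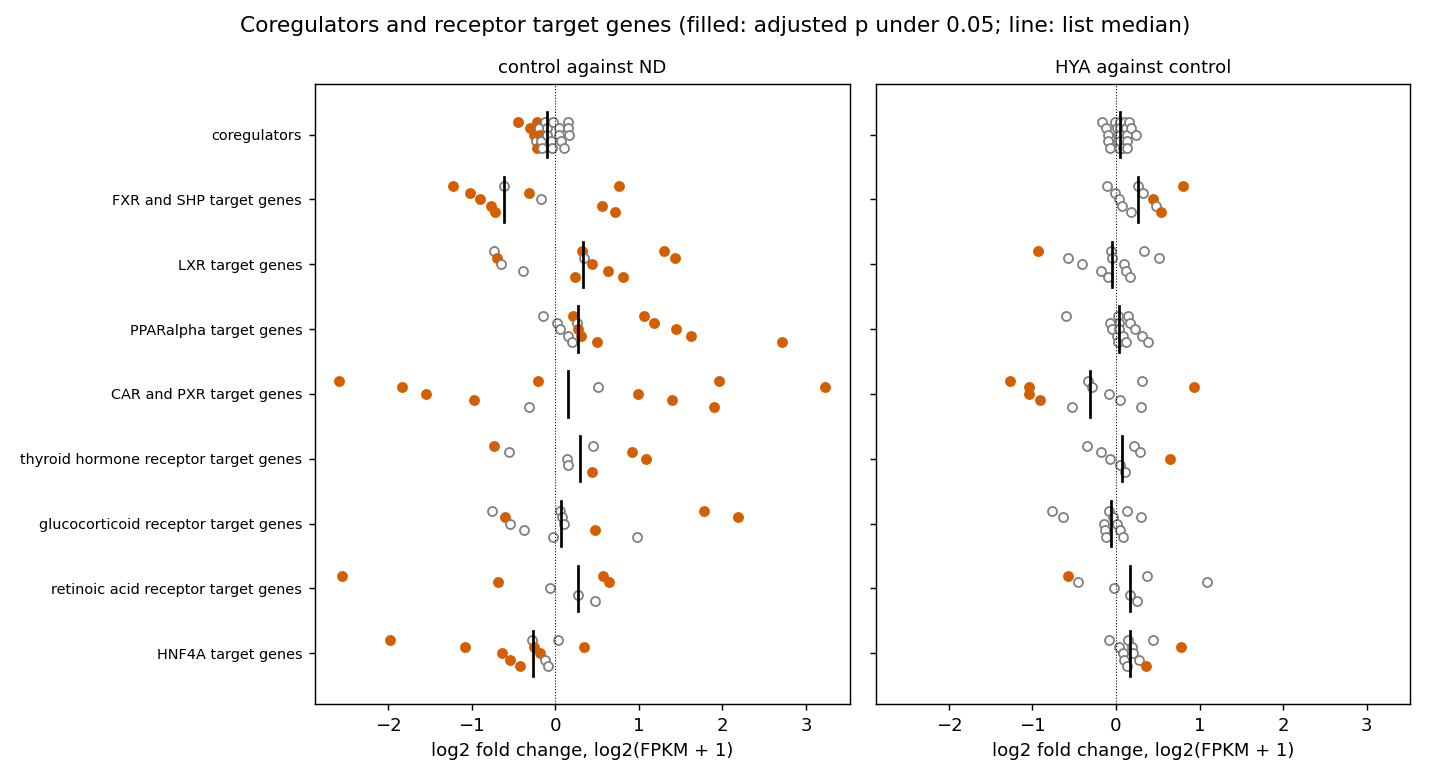
Log2 fold change of the tested genes of 9 lists in control against ND and HYA against control, with 1 point per gene and a line at each median. FXR and SHP targets had a median of -0.62 and LXR targets one of 0.33 in control against ND, in lists not split by whether a receptor raises or lowers a gene.

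Bulk liver RNA mixes cell types, and fewer cells of a type and less RNA per cell cannot be told apart. In control against ND, 0 of 9 hepatocyte markers were higher and 7 lower, and their sum, led by Alb, was 45456 to 47722 FPKM in ND-fed, 29602 to 34126 in control, 38567 to 40440 in HYA-treated and 32691 to 33401 in LA-treated mice. Of 12 stellate cell and myofibroblast markers, 7 were higher and 0 lower, and their sum, led by Ecm1, was 95.5 to 132 in ND-fed, 161 to 200 in control, 156 to 174 in HYA-treated and 176 to 215 in LA-treated mice. Endothelial markers, led by Clec4g, had 4 of 10 higher and 0 lower (75.8 to 93.4 in ND-fed, 107 to 110 in control mice), and macrophage markers, led by Cd5l, had 5 of 10 higher and 1 lower (227 to 350 and 351 to 362). Cholangiocyte markers had 2 of 3 tested higher (3.74 to 5.21 and 6.30 to 9.75). Sox9 had the highest mean of that list over the 12 mice, but Tspan8 or Epcam was above it in each control mouse. The 1 tested lymphocyte gene, Trbc2, was not called, with list sums of 2.49 to 4.85 and 3.63 to 4.13. The 1 tested adipocyte gene, Cfd, was lower (list sums of 5.73 to 8.75 and 0.785 to 2.07), and between 1 and 4 of the 5 genes of that list were at 0 in a given mouse. No gene of the other marker lists was at 0 in any mouse. Of 9 tested immediate early genes, 4 were higher and 0 lower (42.4 to 91.7 and 70.8 to 87.8), with Jun at the highest mean over the 12 mice but below Ier2 in each ND-fed mouse. Of 12 tested clock genes 0 were higher and 2 lower. When HYA-treated mice were set against control mice, 3 of 12 stellate cell markers, 2 of 3 cholangiocyte markers and 1 of 10 macrophage markers were lower, 1 of 9 hepatocyte markers was higher, and no gene of the other marker lists was called, beside 2.80% of all genes. None of these was called without HYA mouse 2 or in a fit of those groups alone, in which 0 of the 11083 genes were. Whether a shift in cell types accounts for the lower Hnf4a or Nr3c1 level, or for target gene changes with HYA, was not tested.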

How the data were processed

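Liver RNA-seq of 12 mice was read from the gene table deposited with the series, whose values are FPKM computed by the authors. According to the submitters' processing notes, reads were trimmed with fastp, aligned to GRCm38 with HISAT2 2.0.5 and counted with featureCounts 1.5.0-p3. The notes also mention TPM, but column sums differed between mice, from 342146 to 429286, so the values were treated as FPKM. Fragments were recovered from FPKM and gene length, and 100% of the low values checked came out whole within 0.02. A floor of 3 fragments on a 2 kb gene corresponded to between 0.0607 and 0.0944 FPKM, which covers counting error only. The library size behind the FPKM was not the assigned fragment count. ND mouse 3 and control mouse 1 held 19595277 and 19558364 assigned fragments, but their floors were 0.0835 and 0.0698 FPKM. Relative to the assigned count, that size was smaller in every ND-fed mouse than in any control mouse, so ND values were scaled up against control values. Voom with TMM on the recovered fragments does not use that size. Its middle log2 fold change of control against ND was -0.004, beside -0.006 for FPKM at the filter of 10 mean fragments.

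The test was run on the 11083 of 54532 genes whose mean reached 1 FPKM. All 12 mice entered 1 fit of log2(FPKM + 1) with limma 3.58.1 in R 4.3.3, with a mean-variance trend and two-sided moderated tests. P values were adjusted by Benjamini-Hochberg over all tested genes in each of 6 comparisons, and called means an adjusted p under 0.05. Intervals are 95% intervals of the fit. Figures were drawn in Python 3.11.15 with matplotlib 3.10.9.

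Values of every mouse were given for the 6 called members with the most negative and the 6 with the most positive change in control against ND, and, where a comparison among the high-fat groups called no member, for the 3 with the lowest p. List genes were named by the largest called changes, at most 2 in each direction. One gene that this rule picks is not reported. Ppara and Nr1i3 were added after their values were seen. The members and lists were chosen with earlier results of these data known. Alternatives were a pseudocount of 0.1, no filter, a filter at 10 mean fragments, rescaling each mouse to the same FPKM total (TPM), median-ratio size factors, voom with TMM on the recovered fragments, only the compared groups, replicate number as a block, a log2 fold change threshold of 1, and leaving out each mouse in turn. The size factors were divided by assigned counts and applied to FPKM, so that setting keeps the mismatch of library sizes described above. List counts and sums under these alternatives were added after seeing the data. The code was tested on simulated data.

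Promoter windows of 200 bases before annotated RefSeq starts on GRCm38.p6 were searched for AGGTCA on both strands. Windows holding over 30 bases of annotated UTR are not printed. By annotation, 33 of the 34 members carried a nuclear receptor family label, and Nr0b2 did not. Another 14 genes with that label were outside the list. One gene each of the glucocorticoid target list (Lcn13) and of the HNF4A target and hepatocyte lists (Tf) was not found in the table.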

Additional observations from a re-analysis of the deposited data

Results flagged for a closer look

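For 6 target genes the effect of HYA differed from that of LA when the difference itself was tested by limma. Slc10a1 had a log2 fold change of 0.73, HYA over LA (adjusted p 0.0365), with 248, 269 and 282 FPKM against 148, 154 and 182. Fetub was higher by 0.47 (adjusted p 0.0365), with 116, 131 and 110 FPKM against 89.2, 79.5 and 87.4. The change was -0.90 for Scd2 (adjusted p 0.0364), at 3.50, 3.15 and 2.84 FPKM against 7.08, 5.95 and 7.25, and -0.96 for Gstm3 (adjusted p 0.0183), at 102, 87.8 and 84.0 against 158, 192 and 188. Cyp2b9 differed by -1.30 (adjusted p 0.0317), at 33.5, 36.8 and 52.2 FPKM against 95.2, 101 and 104, and Cyp2b13 by -1.38 (adjusted p 0.0317), at 1.73, 1.06 and 2.85 against 5.25, 6.40 and 7.20. The ranges of the mice did not overlap for any of the 6 genes, which were selected on this comparison, and did not for 25.2% of all genes. Among all genes, the same comparison called 26 higher and 28 lower, and 0 in either direction if low values were kept or when HYA mouse 2, LA mouse 1 or LA mouse 2 was left out, so none of the 6 genes was called there. The counts were 31 and 134 with TPM, 72 and 26 with size factors, 99 and 110 with voom, and 61 and 33 with the compared groups alone, and they reached 152 and 107 without control mouse 2. With replicate number as a block they were 146 and 112.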

How the results depend on the processing

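In control against ND, Hnf4a, Nr3c1 and Nr6a1 kept direction and call under all 20 alternatives other than the fold threshold, which none of the 29 members passed, and Nr5a2 under 19. Members higher in that comparison numbered 2 without a filter, at 10 mean fragments and with voom, 6 with TPM, and 0 to 1 when a mouse was left out. Members lower numbered 4 without a filter and with 2 groups alone, 3 with TPM, 13 with size factors, 0 past the fold threshold and 4 to 7 when a mouse was left out. Nr1h3 kept its call under 6, turned to 0.063 with TPM, and lost the call without a filter (adjusted p 0.0533), with voom (0.0583) and with 2 groups alone (0.130), from 0.00110 to 0.489 over all. Nr5a2 lost its call with TPM (adjusted p 0.234, from 0.00117 to 0.234 over all alternatives). Nr0b2 lost it without a filter (0.0527), with TPM (0.145) and with 2 groups alone (0.0692), from 0.000877 to 0.145 over all. Thrb lost it in the same settings (0.0686, 0.347 and 0.0687), from 0.00574 to 0.347 over all. In HYA against control, 1 member was higher with size factors and 0 to 1 when a mouse was left out. In HYA against ND, members higher numbered 2 at 10 mean fragments, with TPM and with voom, 0 with size factors and past the fold threshold, and 0 to 1 when a mouse was left out. Members lower were 1 with TPM, 0 past the fold threshold, and 1 to 3 when a mouse was left out. In LA against ND, members higher numbered 2 without a filter, at 10 mean fragments and with voom, and 3 with TPM, and members lower 1 with TPM, 14 with size factors, 0 past the fold threshold and 3 to 8 when a mouse was left out. The median of members was 0.13 with TPM and -0.29 with size factors in control against ND (-0.14 to -0.063 when a mouse was left out), and -0.026 and 0.17 in HYA against control. The summed level in control mice was 102% of ND with TPM and 75.7% with size factors. All genes higher and lower in control against ND were 3792 and 732 with TPM, 1118 and 4709 with size factors, and 2561 and 2209 with voom. Every size-factor value in this paragraph carries the mismatch of library sizes. In HYA against control, genes higher ranged from 0 to 510, the latter with size factors, and lower from 0 to 400 over the alternatives, and both counts were 0 without HYA mouse 2. The cause was not tested.

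With replicate number as a block, control against ND had 1 member higher (Rarg) and 5 lower, since Thrb (adjusted p 0.0540) and Nr1h3 (0.0629) lost their calls, and HYA against ND had 0 higher (Ppara 0.0503). Of 18 pairs of mice with the same number, 3 correlated at r over 0.1, from -0.40 to 0.29, and other pairs from -0.38 to 0.39, across genes, which are not independent replicates. Only 2 of 12 mice correlated best with a mouse of their own number, so the mice were not treated as paired.

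Each group held 3 mice, and 5 members lay too low to be tested. Receptor protein, ligand and activity were not measured. The strandedness of counting was not stated. The values are from 26 weeks alone, and the hour of sampling was not given.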

Other observations

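The low members Nr4a2 and Nr4a3, which encode orphan receptors induced by many stimuli, were below the filter and are given as values chosen after they were seen. Nr4a2 had 10, 5 and 16 fragments in ND-fed mice and 45, 59 and 44 in control mice, with 27, 29 and 40 in HYA-treated and 39, 52 and 48 in LA-treated mice. Nr4a3 had 1, 0 and 5 in ND-fed mice, 19, 15 and 20 in control mice, 4, 5 and 8 in HYA-treated mice and 19, 16 and 9 in LA-treated mice. Under alternatives that tested them, Nr4a2 had an adjusted p of 0.00103 without a filter, 0.000265 at 10 mean fragments and 0.000642 with voom, and Nr4a3 had 0.00437, 0.00748 and 0.00191 for control against ND. In voom their log2 fold changes were 2.01 and 3.21. Nr4a1, tested in all settings, spread from 0.682 to 5.52 FPKM among the ND-fed mice.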
